A study of Mus musculus with 460 samples.

Results

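The 10 genes described here encode chaperones and folding enzymes of the endoplasmic reticulum (ER): Hspa5, Hsp90b1, Sdf2l1, Calr, Canx, Pdia3, Pdia4, Pdia6, P4hb and Serpinh1. They were chosen by name, as general ER chaperones together with the collagen chaperone Serpinh1, from 48440 genes counted in 460 single cells. All 10 had counts, and all 10 passed the filter used for correlations, a count in at least 10% of cells. The cells were labelled as CAFs (cancer-associated fibroblasts, the fibroblasts of a tumour) from mice with lung adenocarcinoma, all of 1 strain, and their source was given as tCAFs, an abbreviation the labels do not expand. No treatment, age, control tissue, animal or culture was named, so the 460 cells formed 1 group and counted as 1 sample. Values over cells are therefore descriptions, with no test, and every interval covers counting error only.

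Proteins destined for secretion enter the ER as unfolded chains. There Hsp70-type and Hsp90-type chaperones hold them, lectin chaperones retain those that carry sugars, and protein disulfide isomerases pair their cysteines. Fibroblasts secrete large amounts of collagen, whose triple helix needs prolyl hydroxylase, of which P4hb is a subunit, and a dedicated chaperone, Serpinh1 (HSP47). When unfolded proteins accumulate, the unfolded protein response raises transcription of many ER chaperone genes, in part through promoter elements known as ER stress response elements.

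The classical element consists of CCAAT and CCACG separated by 9 bases, and it was searched on both strands as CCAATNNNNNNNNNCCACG. The windows were those of RefSeq (GRCm38.p6), from 250 bases before to 50 bases after each annotated start, and all 10 members matched a window. The element was present in 5 of 10 members, against 39 of 32851 windows (0.119%). Elements of this kind are known from ER chaperone genes, so choosing ER chaperones by name was not independent of the element. The higher share among the members is therefore a description and not separate evidence about them. The 6 matches found in these 5 genes have CCAAT and CCACG in capitals, and each match has 5 flanking bases. They are written 5′ to 3′ on the strand that reads CCAAT first.
Hsp90b1, far match: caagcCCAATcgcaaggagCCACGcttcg
Hsp90b1, near match: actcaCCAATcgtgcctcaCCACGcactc
Calr: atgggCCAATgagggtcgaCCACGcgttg
Canx: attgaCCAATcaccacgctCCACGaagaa
Hspa5: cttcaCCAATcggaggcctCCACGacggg
Pdia6: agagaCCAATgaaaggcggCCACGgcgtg
All 6 lay before the annotated RefSeq start of their gene. The far Hsp90b1 match was printed from chr10:86705633-86705661 (minus strand) and the near one, which ended 89 bases from the start, from chr10:86705528-86705556 (plus strand). The Calr match was at chr8:84847070-84847098 (plus strand) and the Canx match at chr11:50325795-50325823 (minus strand). The near Hsp90b1 match and the Calr match read against the direction of their genes, and the other 4 read along it. In Hspa5 the match was at chr2:34772020-34772048 (plus strand), 65 to 47 bases before the RefSeq start, where it overlapped an exon of a GENCODE vM21 transcript of Hspa5. The other 5 matches overlapped no exon of their own genes, and exons of other genes were not searched. In Pdia6 the match was at chr12:17266486-17266514 (plus strand), 98 to 80 bases before the start.

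With 1 of the 10 fixed letters allowed to differ, 7 of 10 members held the element, Pdia3 and Pdia4 joining the other 5, against 1.5% of windows. P4hb, Serpinh1 and Sdf2l1 held neither form in these windows. Each part alone was common: CCAAT was in 9 of 10 member windows against 37.4% of all windows, and CCACG in 9 of 10 against 32.8%. A match is a run of letters and was not measured as a site of binding.

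Depth ranged from 25029 to 240496 molecular barcode counts per cell, with a median of 88701. Levels below are in CPM, counts scaled to 1000000 per cell, or over the summed table where stated. The fibroblast markers were present, 11 of 12 being counted in 10% of cells or more, with Fap as the exception. A set of 27.6% of the 460 columns lay among neighbours low in Sftpc, a surfactant gene of lung epithelium, and its cells averaged 4176 CPM for the 10 members summed, against 4532 CPM in the other columns. What separates these columns is not given in the labels, and results are repeated with and without them.

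The 10 genes together made up 0.459% of all counts. Their summed level was lowest at 931.7 CPM, with a median of 4303 CPM and a highest value of 11841 CPM over the 460 cells. Secretory load, taken as the summed CPM of Col1a1 and Col1a2, the chains of type I collagen, and Fn1, fibronectin, made up 1.12% of all counts and ran from 926.8 CPM through a median of 10540 CPM to 32870 CPM. Every cell thus held chaperone transcripts, and the summed load varied over a wider range than the summed chaperones did. By gene the coefficient of variation was 58.3% for Col1a1, 60.8% for Col1a2 and 46.2% for Fn1. These lie within the range of the single members given below.

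Among the Hsp70-type and Hsp90-type chaperones, Hsp90b1 was the most abundant member by counts. Hsp90b1 encodes GRP94, the Hsp90 of the ER (chr10:86690209-86705509, minus strand, GENCODE vM21 on mm10). Its level over the summed table was 942.1 CPM (95% Poisson interval 932.9 to 951.4), and single cells ran from 150.7 through a median of 849.7 to 2552 CPM. Hspa5, the ER Hsp70 known as BiP (chr2:34771970-34777547, plus strand), stood at 755.5 CPM (747.3 to 763.8), with single cells from 68.5 through 643.6 to 2703 CPM. Both were counted in 100% of the cells. Hspa5 varied more between cells than Hsp90b1, with a coefficient of variation of 53.5% against 42.95%.

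Sdf2l1, a small partner of the Hsp70 cycle in the ER (chr16:17130138-17132383, minus strand), was the exception in level. It reached 6.71 CPM (5.96 to 7.54), and its single-cell values ran from 0 through a median of 0 to 109.9 CPM. A count was present in 25.4% of the 460 cells (exact Clopper-Pearson 95% interval 21.5 to 29.7). Counts this sparse limit its correlations, which are given below for completeness and not as findings.

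The lectin chaperones were both counted in every cell. Calr, calreticulin, the soluble lectin (chr8:84841850-84846934, minus strand), stood at 840.2 CPM (831.5 to 848.9), with cells from 57.2 through 787.1 to 2043 CPM. Canx, calnexin, its membrane-bound counterpart (chr11:50293961-50325673, minus strand), stood at 491 CPM (484.4 to 497.7), with cells from 21.9 through 461.6 to 1237 CPM. Variation between cells was of like size in the pair, with coefficients of variation of 41.4% for Calr and 42.4% for Canx.

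The disulfide isomerases spanned a wide range. Pdia3 (ERp57), which works with the lectins on glycoproteins (chr2:121413775-121438687, plus strand), was highest at 552.4 CPM (545.4 to 559.5), with cells from 49.1 through 514 to 1413 CPM. P4hb, which is both a disulfide isomerase and the β subunit of prolyl 4-hydroxylase (chr11:120560298-120573253, minus strand), followed at 314.8 CPM (309.5 to 320.2), with cells from 0 through 294.9 to 930.5 CPM. Pdia4 (ERp72; chr6:47796141-47813430, minus strand) stood at 218.4 CPM (214.03 to 222.9), with cells from 0 through 188.01 to 760.1 CPM. Pdia6, an isomerase that associates with BiP (chr12:17266545-17284770, plus strand), was lowest at 105.3 CPM (102.2 to 108.4), with cells from 0 through 88.1 to 571.6 CPM. P4hb lacked a count in 1 cell, Pdia4 was counted in 98.04% of cells and Pdia6 in 90.4% (87.4 to 92.96). The coefficient of variation was larger for the less abundant isomerases, from 41.9% for Pdia3 through 47.6% for P4hb and 60.9% for Pdia4 to 85.7% for Pdia6. Lower counts carry more sampling noise, and of the variance of Pdia6 after thinning all cells to 56586 counts 77.5% was above the Poisson part.

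Serpinh1, which binds the folded collagen helix (chr7:99345376-99353239, minus strand), stood at 363.4 CPM (357.7 to 369.1). Single cells ran from 0 through a median of 343.9 to 1016 CPM, with a count in 99.8% of cells and a coefficient of variation of 46.8%. It was therefore present in nearly every cell at a level between those of P4hb and Canx.

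Per kilobase of exon the order of the genes changed. The labels do not say whether counted fragments come from the whole transcript or from 1 end, so both scales are given. On the per-length scale Calr led with 291.7 CPM per kb, followed by Hsp90b1 with 233.7, Hspa5 with 178.6, Pdia3 with 175.98, Serpinh1 with 148.7, P4hb with 110.04, Canx with 104.6, Pdia4 with 91.1, Pdia6 with 28.1 and Sdf2l1 with 6.06. Hspa5 and Pdia3 did not differ beyond counting error, with intervals of 176.7 to 180.6 and 173.7 to 178.2 CPM per kb. The load genes stood at 530.6 (Fn1), 366.9 (Col1a1) and 206.5 (Col1a2) CPM per kb. Calr and Hsp90b1 lay between the type I collagen chains on this scale only. Lengths merged all annotated exons of a gene, 12426 bases for Col1a2 and 6563 for Col1a1, and may exceed the transcript present. In CPM over the summed table Col1a2 (2565) stood above Col1a1 (2408), and both stood above every member.

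**Figure D1:**
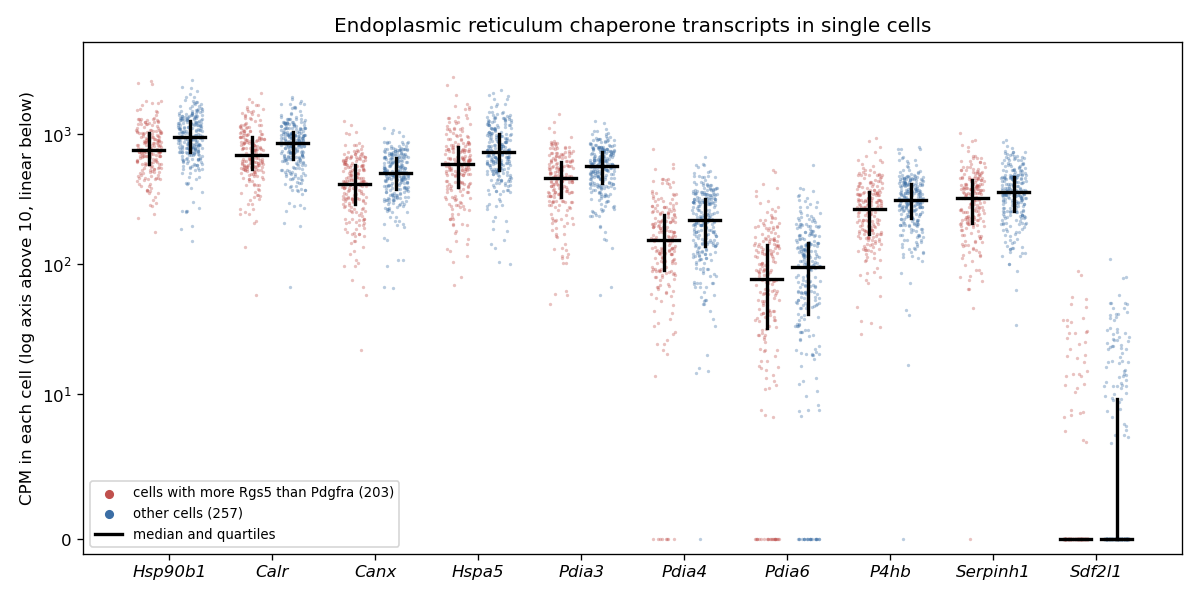
CPM of each of the 10 members in single cells, on an axis that is logarithmic above 10 CPM and linear below; each point is 1 cell, with cells with more Rgs5 than Pdgfra counts in red and other cells in blue, and black bars give medians and quartiles. The red and blue points overlap for every member, the red median being 750.6 CPM for Hsp90b1 against 936.9 CPM in blue, and both medians of Sdf2l1 are at 0.

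The members varied together from cell to cell. Over the 460 cells the median Spearman correlation of the 45 pairs was 0.266, and all 45 lay above 0. Of these, 32 pairs reached 0.2, against 0.362% of all pairs of genes with a count in at least 10% of cells, whose median was 0.0151. Among genes with a count in at least 90% of cells, a group closer to the members in abundance, 2.59% of pairs reached 0.2. The cells differ in depth, and the labels do not say whether they share a preparation. Points over cells of 1 sample are not independent replicates.

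Hsp90b1, Calr, Hspa5 and Pdia3 formed the tightest group. The highest correlation was that of Hsp90b1 with Calr (0.487), followed by Calr with Pdia3 (0.472), Calr with Hspa5 (0.469) and Hsp90b1 with Hspa5 (0.468). Pdia3 was closer to Calr than to Canx (0.344), the other lectin it is known to work with, and it was also close to Pdia4 (0.458). Against the mean z score of the other 9 members, the correlation was 0.596 for Pdia3, 0.560 for Calr, 0.550 for Hsp90b1 and 0.520 for Hspa5. Pdia4 (0.461), P4hb (0.412) and Canx (0.407) were intermediate, and Pdia6 (0.345), Serpinh1 (0.342) and Sdf2l1 (0.212) were lowest. The lowest pair was Serpinh1 with Sdf2l1 at 0.0456, where the counts of Sdf2l1 are sparse.

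**Figure D2:**
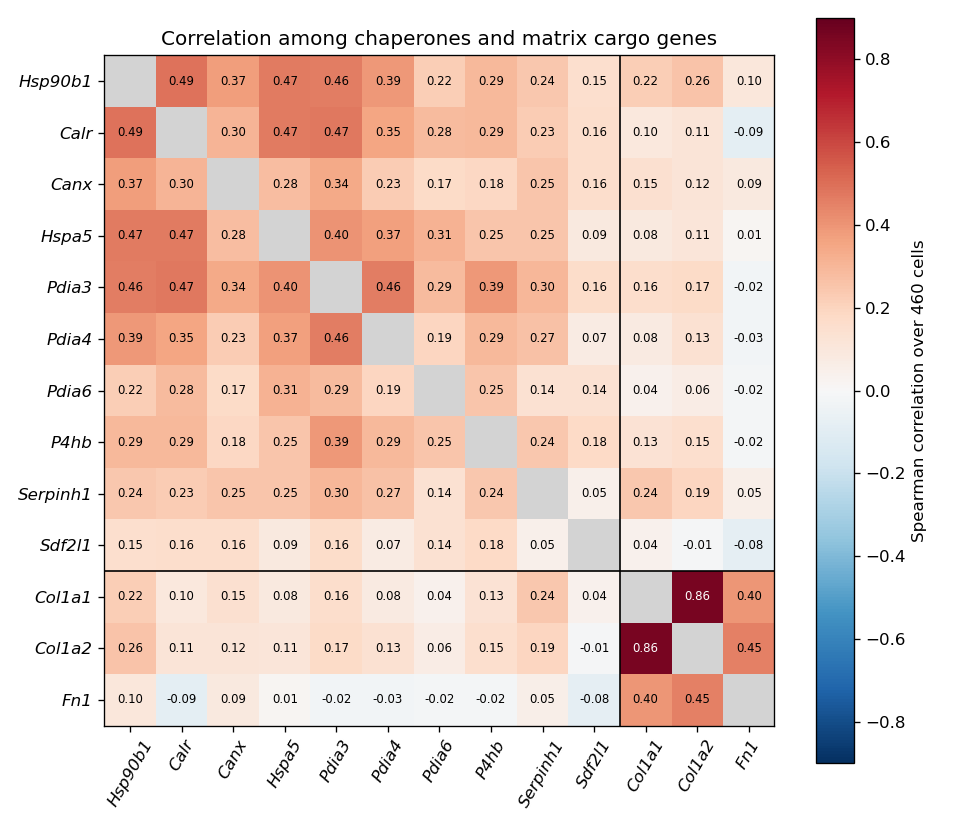
Spearman correlation over 460 cells for each pair among the 10 members and the load genes Col1a1, Col1a2 and Fn1, as a colour scale with the value in each square; black lines separate members from load genes. Among the members values are highest for Hsp90b1, Calr, Hspa5 and Pdia3, up to 0.487, and lowest in the row of Sdf2l1, down to 0.0456, and those of members with Fn1 run from -0.0859 to 0.103.

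Depth and RNA composition moved with the members. The mean z score of the 10 members correlated with the total count of the cell at 0.444, with the nuclear RNA Malat1 at -0.425 and with the mitochondrial share at -0.300. Malat1 itself correlated with the total count at -0.610. With the total count held fixed, the median of the 45 pairs was 0.221 and 28 pairs reached 0.2. After thinning every cell to 56586 counts, which kept 90% of the cells, it was 0.222 with 29 pairs, and with total count, Malat1 and mitochondrial counts all held fixed it was 0.213 with 27 pairs. Within the low-Sftpc columns the median was 0.282, and in the other columns 0.253.

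Pairs in which both genes held the exact element of the promoter search had a median of 0.309 (10 pairs), against 0.250 for pairs in which 1 gene held it (25 pairs) and 0.254 for pairs without it (10 pairs). The ranges overlapped widely, the last group reaching 0.458 with Pdia3 and Pdia4. Sdf2l1, whose counts are sparse, lacked the element, so its pairs fell only in the groups with 1 holder or none. Those groups ran down to 0.0885 and 0.0456, in both cases in a pair with Sdf2l1. The groups were not matched for abundance, and the difference in medians was not tested. Of 32 other genes with the exact element, 11 passed the 10% filter on cells with a count. Their median correlation with the mean z score of the members was 0.149, against 0.0468 for all genes. Among these 11, Dnajc3 (0.297), a co-chaperone of BiP, and Creld2 (0.282), an ER stress-inducible protein, reached 0.2, against 2.29% of genes. Adcy3 (-0.0205), Pan2 (-0.0808) and Acacb (-0.0854) were below 0. The names of these genes were taken after their values were seen, and the difference was not tested.

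Transcripts of the machinery around the chaperones varied with them to a lesser degree. Each list gene was correlated over the 460 cells with the mean z score of the 10 members. On this measure 2.29% of genes reached 0.2, 0.644% reached -0.2 and the median gene stood at 0.0468. These background values cover genes with a count in at least 10% of cells, and none were taken over more abundant genes alone. Many list genes are well above that filter, and their values were not adjusted for the total count. Of 12 ER co-chaperones and cofactors, 5 reached 0.2 (list median 0.184), led by Hyou1 (0.393), the nucleotide exchange factor of BiP, Manf (0.353) and Dnajb11 (0.308). The most abundant genes of that list were Sec63 (0.138), Dnajc3 (0.297) and Dnajb9 (0.197). Of 21 genes of ER translocation and N-glycosylation, 10 reached 0.2 (median 0.178), among them Ssr2 (0.350), a translocon-associated subunit, Sec61a1 (0.339), the channel, and Rpn2 (0.338), of the oligosaccharyltransferase. Ssr3, the most abundant gene of that list, stood at 0.258.

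Of 22 genes of ER exit and cargo transport, 8 reached 0.2 (median 0.174), with Surf4 (0.316), a cargo receptor, Copa (0.235) and Sec31a (0.171) the most abundant. The lectin cycle had 3 of 12 (median 0.154), with Ganab, glucosidase II, at 0.232 and Uggt1, which senses misfolded glycoproteins, at 0.141. Of 12 further oxidoreductases 3 reached 0.2 (median 0.116); Txndc5 stood at 0.358, while Ero1l, an oxidase of the isomerases, stood at 0.0277. Of 18 collagen-folding genes 5 reached 0.2 (median 0.138), with Fkbp10 at 0.363 and Colgalt1 at 0.349. The most abundant of them, Crtap and Plod3, stood at 0.217 and 0.122.

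The sensors and transcription factors of the unfolded protein response gave 0 of 11 at 0.2 (median 0.118), with Creb3l2 at 0.149, Xbp1 at 0.154 and Atf6 at 0.0933. Those of the integrated stress response gave 0 of 12 (median 0.0681), with Ppp1r15a at 0.0132, Cebpb at 0.156 and Atf3 at 0.110. ER-associated degradation gave 0 of 10 (median 0.108), or 0 of 9 (median 0.106) without the cytosolic chaperone Hsp90ab1, which the list also held. Of 16 cytosolic chaperones 1 reached 0.2 (median 0.113), close to the oxidoreductases of the ER, and Hsp90ab1, the abundant cytosolic Hsp90, stood at 0.123 against 0.550 for its ER relative Hsp90b1 with the other members. Of 6 mitochondrial ones 1 reached 0.2 (median 0.140), which was above the medians of the oxidoreductases and of collagen folding. Matrix genes outside the load gave 2 of 9 for other collagens (median 0.171), 4 of 15 for other secreted matrix genes (0.115) and 0 of 11 for basement membrane genes (-0.0643). Xbp1 transcripts here are counted without regard to splicing, so its activated form was not measured.

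**Figure D3:**
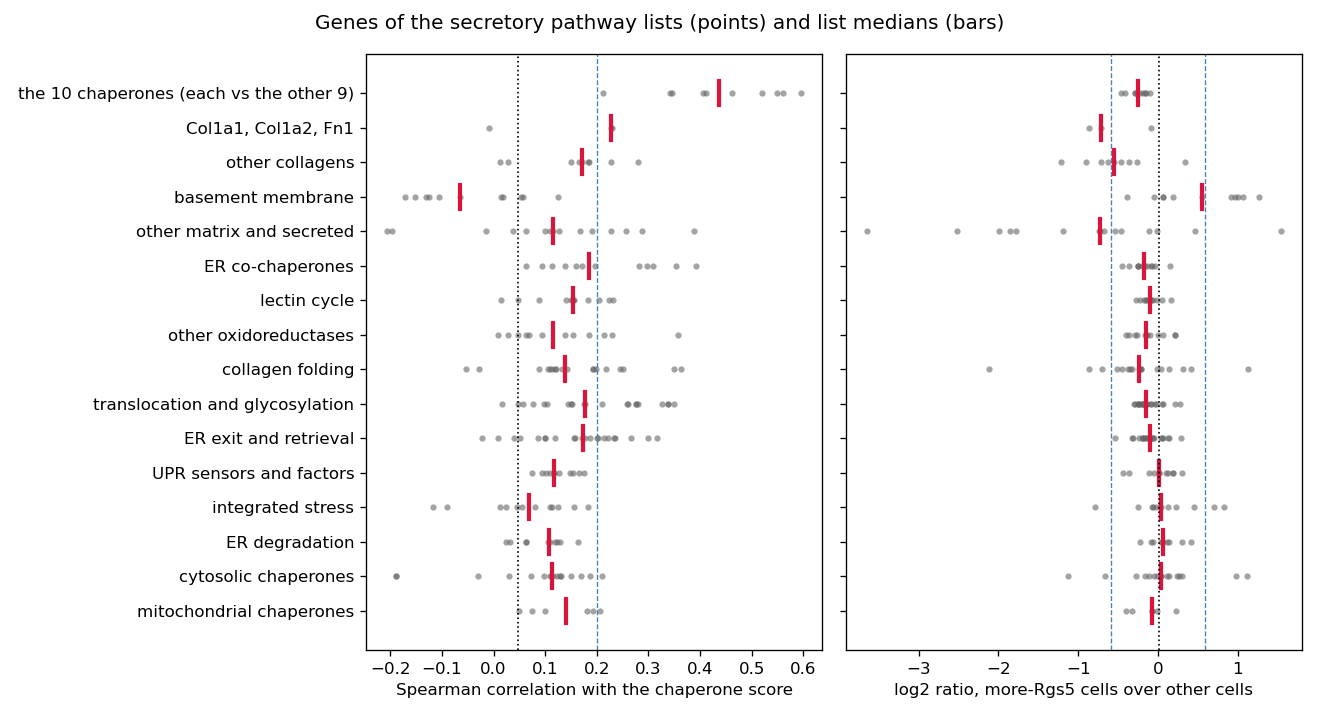
Genes of each list (points) and list medians (red bars): at left the Spearman correlation with the mean z score of the members over 460 cells, at right the log2 ratio of mean CPM in cells with more Rgs5 than Pdgfra counts over the other cells. Dotted lines mark the median of all genes, dashed lines a correlation of 0.2 and 1.5-fold; ER co-chaperones (0.184), translocation (0.178) and ER exit (0.174) have higher median correlations than the integrated stress (0.0681) and basement membrane (-0.0643) lists.

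The closest genes in the whole table, among 7472 eligible by level and name, were Ckap4 (0.397), Hyou1 (0.393), Fstl1 (0.389), Fkbp10 (0.363), Txndc5 (0.358), Emilin1 (0.355), Igfbp4 (0.355), Manf (0.353), Ssr2 (0.350) and Colgalt1 (0.349), by correlation with the mean z score of the members over the 460 cells. Ckap4 is a membrane protein of the rough ER, and Fstl1, Emilin1 and Igfbp4 encode secreted proteins. With the total count held fixed these 10 stood between 0.258 and 0.340. At the other end were Malat1 (-0.425) and Rgs5 (-0.355), the latter one of the genes used to divide the cells below.

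Of 12 ER co-chaperones and cofactors, 4 reached 0.2 with Hspa5 (median 0.153). Over the 460 cells Hspa5 correlated with Hyou1 at 0.388, with Creld2 at 0.317, with Manf at 0.314, with Dnajc3 at 0.257, with Dnajb11 at 0.198, with Dnajb9 at 0.177 and with the member Sdf2l1 at 0.0885, whereas 0.816% of genes reached 0.2 with Hspa5. Over all cells P4hb showed little relation to the catalytic subunits with which it forms prolyl 4-hydroxylase: 0.0126 for P4ha1, 0.128 for P4ha2 and 0.0988 for P4ha3. In the cells with more Rgs5 than Pdgfra counts P4ha2 stood at 0.251, and in the other cells at -0.0375. P4ha1 and P4ha3 stayed below 0.2 in both classes. These partners were read after their values were seen.

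Single members showed little relation to the summed secretory load. Over the 460 cells the correlation of each member with the summed CPM of Col1a1, Col1a2 and Fn1 had a median of 0.0640, from -0.0493 for Sdf2l1 to 0.190 for Hsp90b1. None of the 10 reached 0.2, against 3.56% of all genes and 8.59% of those with a count in at least 90% of cells, and none reached -0.2, against 5.87%; the median gene stood at -0.0501. The cells were then ordered by load and cut into 4 equal groups. From the lowest group to the highest the mean load went from 6165 to 18603 CPM, 3.02-fold, and the mean summed level of the members through 4204, 4375, 4498 and 4656 CPM, 1.11-fold. Hsp90b1 went from 833.8 to 1039 CPM (1.25-fold) and Serpinh1 from 312.2 to 381.04 CPM (1.22-fold). Hspa5 went from 655.1 to 716.4 CPM (1.09-fold) and Calr from 828.1 to 806.5 CPM (0.974-fold).

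**Figure D4:**
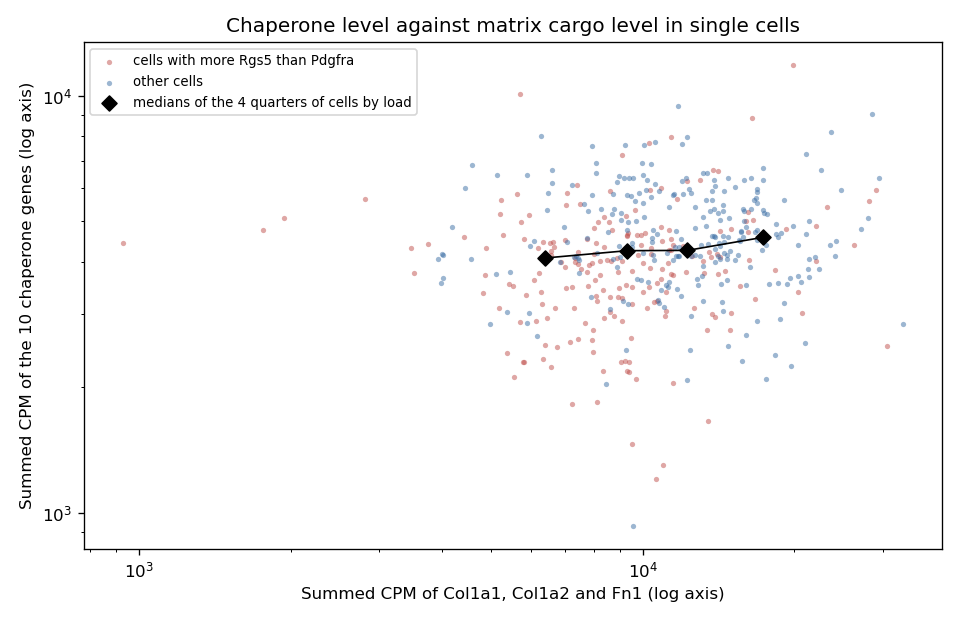
Summed CPM of the 10 members against the summed CPM of Col1a1, Col1a2 and Fn1 in each cell, both on log axes, with cells with more Rgs5 than Pdgfra counts in red, other cells in blue, and diamonds for the medians of 4 equal groups of cells by load. The diamonds go from 4085 to 4580 CPM of members (1.12-fold) while the median load goes from 6391 to 17332 CPM (2.71-fold).

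The values were higher for collagen than for Fn1. With Col1a1 and Col1a2 alone the median was 0.129, and 2 of 10 members reached 0.2, Hsp90b1 (0.250) and Serpinh1 (0.217), against 4.77% of genes. With Fn1 alone it was -0.0182, with 0 of 10, against 1.7% of genes. Fn1 CPM itself correlated with the total count at -0.274, whereas Col1a1 stood at 0.00327 and Col1a2 at 0.0252. The highest count of any gene in any cell was 1055, and Fn1 was above 500 counts in 59.6% of cells. With the total count held fixed the median with Fn1 turned to 0.0697, 8 of 10 members being above 0 against 4 before, and that with Col1a1 and Col1a2 was 0.130. Whether a ceiling on barcode counts enters the values for Fn1 was not tested. With the total count held fixed the median with the full load was 0.109 and 1 member, Hsp90b1 (0.237), reached 0.2. The mean z score of the 10 members, which averages out some counting noise of single genes, stood at 0.110 with the full load, 0.202 given the total count, and at 0.234 with Col1a1 and Col1a2, 0.254 given the total count. By gene it stood at 0.227 with Col1a1, 0.229 with Col1a2 and -0.00938 with Fn1. Thus 2 of the 3 load genes reached 0.2 over all cells on the measure used for the lists above. Within the cell classes described below the score was less related to them. With Col1a1 and Col1a2 it stood at 0.134 in the cells with more Rgs5 than Pdgfra counts and -0.0209 in the others. With the full load it stood at 0.0537 and -0.0739.

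The relation was also small within each of the cell classes described below. In the cells with more Rgs5 than Pdgfra counts the median correlation with the load was 0.0382, and in the other cells it was -0.0850. For Col1a1 and Col1a2 alone the medians were 0.0806 and -0.0438. Serpinh1 with Col1a1 and Col1a2 stood at 0.246 in the first class and 0.121 in the second.

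Serpinh1 had more collagen chains at 0.2 or more than any other member, by 1 over Hsp90b1, a description with no test. Over 15 collagen chains its correlations had a median of 0.141, 14 of 15 were above 0 and 6 reached 0.2, while 0.515% of all genes reached 0.2 with Serpinh1. Col5a1, a chain of type V collagen, was the gene closest to Serpinh1 in the whole table (0.333). The other 5 chains at 0.2 or more were Col6a3 (0.264), Col6a2 (0.248), Col1a1 (0.239), Col5a2 (0.239) and Col6a1 (0.221), named after their values were seen. Of the other 9 members, Hsp90b1 had 5 such chains, Pdia3 2, Canx 1 and the remaining 6 had 0. Serpinh1 was above the median of the other 9 for 14 of 15 chains, but at least 1 other member stood above it for 6, among them Col1a2 (highest other value 0.258 against 0.190) and Col3a1 (0.202 against 0.139).

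Over all cells the gap between Serpinh1 and the other members was widest for a type VI chain and the type IV chains of basement membranes. For Col6a3 the median of the other 9 members was 0.000363 and the highest 0.0957. For the type IV chains Col4a1 and Col4a2 Serpinh1 stood at 0.125 and 0.0938, and the other 9 at medians of -0.126 and -0.121, with highest values of -0.0303 and -0.0482. With the summed basement membrane genes Serpinh1 stood at 0.160, and each of the other 9 members below 0. Col4a1 (ratio 1.997) and Col4a2 (2.08) were higher in the cells with more Rgs5 than Pdgfra, in which the members were lower. Values of the other 9 members with these chains are not given within the cell classes. The part of the class difference in the gap was not tested. With the total count held fixed Serpinh1 had 6 of 15 chains at 0.2 or more. In the cells with more Rgs5 than Pdgfra it had 8 (median 0.215), and in the other cells 2 (median 0.140). Of 18 collagen-folding genes, 5 reached 0.2 with Serpinh1: Fkbp10 (0.293), P3h1 (0.271), Colgalt1 (0.234), Fkbp9 (0.225) and Crtap (0.220), of which P3h1 and Crtap encode partners in the prolyl 3-hydroxylase complex.

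The cells were divided by whether Rgs5, a regulator of G-protein signalling typical of pericytes, had more counts than Pdgfra, a receptor for platelet-derived growth factor found on fibroblasts. More Rgs5 was found in 44.1% of the 460 cells, and 70 cells lay within 2-fold of the division. The classes rest on the counts of these 2 genes alone and are not named as cell types here. The 10 members were slightly lower in the cells with more Rgs5. Their summed level had a mean of 4028 CPM there and 4754 CPM in the other cells, a ratio of 0.847, and 73.4% of cells with more Rgs5 lay below the median of the others. The classes overlapped over nearly their whole range, 1202 to 11841 CPM against 931.7 to 9463 CPM.

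Ratios of mean CPM were below 1 for 10 of 10 members, against 48.9% of all genes and 47.4% of genes with a count in at least 90% of cells. None of the 10 was 1.5-fold lower, against 10.2% of genes and 5.8% of those with a count in at least 90% of cells, and none 1.5-fold higher, against 7.63%. The median log2 ratio of the members was -0.25, a ratio of 0.842, and that of all genes 0.01. Both classes come from 1 sample, so these differences carry no test.

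By role, the Hsp70-type and Hsp90-type chaperones had ratios of 0.818 for Hspa5 (643.3 against 787 CPM) and 0.831 for Hsp90b1 (823.3 against 990.5 CPM). Sdf2l1 had the lowest, 0.722 (5.09 against 7.44 CPM), but it had a count in 16.96% and 23.5% of thinned cells, 19.7% and 29.96% before thinning, and rests on few counts. The lectins stood at 0.889 for Calr (763 against 858 CPM) and 0.853 for Canx (433.99 against 509.04 CPM).

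The isomerases spread from 0.753 for Pdia4 (174.7 against 232.3 CPM) and 0.821 for Pdia3 (468.5 against 571.1 CPM) to 0.879 for P4hb (282.7 against 321.8 CPM) and 0.932 for Pdia6 (98.5 against 105.8 CPM). Serpinh1 stood at 0.902 (334.6 against 370.97 CPM). The load genes differed more: Col1a2 had a ratio of 0.550 and Col1a1 0.607, while Fn1 had 0.942. Serpinh1 was thus closer to equal between the classes than either type I collagen chain.

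Depth and RNA composition also differed between the classes. The cells with more Rgs5 had a median of 76944 counts against 96654, a median Malat1 level of 5937 against 5087 CPM, 2.45% against 2.04% mitochondrial counts, and 31.5% against 24.5% of cells in the low-Sftpc columns. After thinning the ratio of the summed members was 0.854. Within 4 equal groups of cells by total count the median ratio of the members was 0.945, 0.814, 0.883 and 0.898 from the shallowest to the deepest, and 7, 10, 9 and 9 of the 10 members were lower in the cells with more Rgs5. In the shallowest group Serpinh1 had a log2 ratio of 0.13. Their part in the class difference beyond this was not tested.

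**Figure D5:**
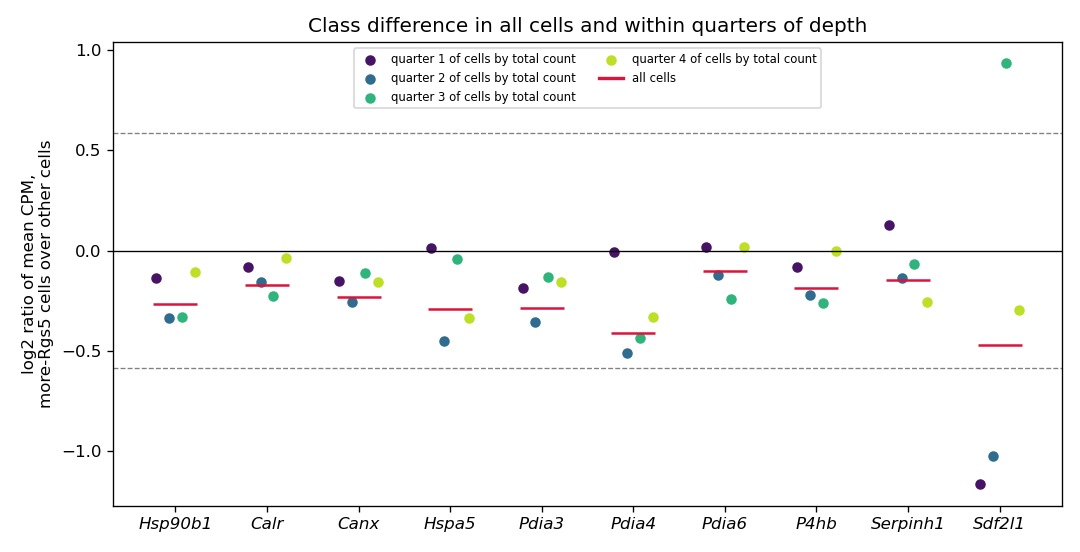
Log2 ratio of mean CPM in cells with more Rgs5 than Pdgfra counts over the other cells, for each member, in all 460 cells (lines) and in 4 equal groups of cells by total count (points); dashed lines mark 1.5-fold. The lines of all 10 members lie below 0 and above the lower dashed line, and Sdf2l1 scatters most, from -1.17 to 0.93.

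Within the 4 groups of cells by load the class ratio of the summed members was 0.834, 0.769 and 0.858 in the lower 3 and 1.02 in the highest, which held 24 cells with more Rgs5 and 91 others. Marker genes of other cell types were summed per cell. Over 12 epithelial markers the median was 745 CPM in the cells with more Rgs5 (range 0 to 23907) and 625.7 CPM in the others (0 to 25105), with 11 of 12 in at least 10% of cells and Epcam below that. Over 10 immune markers the medians were 75.7 CPM (0 to 8682) and 70.1 CPM (0 to 5539), with 5 of 10 in at least 10% of cells and Nkg7 at 0. Means differed more than these medians, 310.2 against 156.8 CPM for immune and 1302 against 945.8 CPM for epithelial markers. All 5 of the 5 filtered immune genes, and 5 of the 11 epithelial ones, were more than 1.5-fold higher in the cells with more Rgs5, in which the members were lower. Over 8 endothelial markers they were 15.1 CPM (0 to 4028) and 21.2 CPM (0 to 4926), with 6 of 8. Plasma cells, which are rich in ER, had 1 of 8 markers (Sdc1) in at least 10% of cells, with Tnfrsf17 and Pou2af1 at 0, and medians of 41.5 CPM (0 to 1276) and 58.1 CPM (0 to 446.5). The 9 mural markers, which include Rgs5 itself, were all in at least 10% of cells, with means of 10863 CPM (385.9 to 25616) and 1859 CPM (273.98 to 9033), and 7 of 9 were more than 1.5-fold higher. The mural sum correlated with the members at -0.296 and the fibroblast sum, which holds the load genes and Pdgfra, at 0.133. The others correlated with the members at -0.0745 (epithelial), -0.104 (immune), 0.0653 (endothelial) and 0.0996 (plasma cell). Their part in the results was not tested.

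Ratios around the chaperones were read against the 48.9% of all genes below 1. They were below 1 for 11 of 12 co-chaperones (median ratio 0.883), 10 of 12 lectin-cycle genes (0.931), 8 of 12 oxidoreductases (0.903), 17 of 21 translocation genes (0.900) and 16 of 22 ER exit genes (0.930). In these 5 lists no gene was past 1.5-fold, where 10.2% of all genes were that much lower and 7.63% higher. The counts were 4 of 11 for the sensors and factors of the unfolded protein response (1.01) and 5 of 12 for the integrated stress response (1.02). They were 3 of 10 for ER-associated degradation (1.04, or 3 of 9 and 1.05 without Hsp90ab1) and 7 of 16 for cytosolic chaperones (1.03). Past 1.5-fold, the integrated stress response had 2 genes higher, Vldlr (1.77) and Sesn2 (1.63), and 1 lower, Cebpb (0.578). Cytosolic chaperones had 2 higher and 2 lower, named below, and the other lists of this group had none.

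Collagen-folding genes divided more unevenly, 13 of 18 being below 1 (median 0.851). P4ha3, a catalytic subunit of prolyl 4-hydroxylase, stood at 69.2 against 302.6 CPM (0.231), far from the 0.879 of its partner P4hb. P4ha2 (0.616) and Fkbp11 (0.549) were also more than 1.5-fold lower, and P3h2 (2.18), a prolyl 3-hydroxylase, was higher. P4ha1, also a catalytic subunit of prolyl 4-hydroxylase, was higher too, at 238.5 against 179.2 CPM (1.33). Basement membrane genes stood on the other side, with a median ratio of 1.47 and 5 of 11 more than 1.5-fold higher, among them Col4a1 (2781 against 1392 CPM) and Col4a2 (2285 against 1096 CPM).

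Among cytosolic chaperones the stress-inducible Hsp70 genes Hspa1a (1.96) and Hspa1b (2.17) were higher in the cells with more Rgs5, in the direction opposite to their ER relative Hspa5. The pair are near-identical copies whose reads cannot be assigned with certainty to 1 of them. The small heat shock gene Hspb1 (0.459) and Hsph1 (0.633) were lower.

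The members also varied together within each class. The median of the 45 pairs was 0.241 in the cells with more Rgs5, where 27 pairs reached 0.2 and 44 were above 0, and 0.257 in the other cells, where 31 reached 0.2 and 45 were above 0.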

How the data were processed

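The deposited table holds molecular barcode counts, whole numbers per gene and cell, for 48440 genes in 460 cells. STAR, HTSeq and mm10 are named in the submitters' processing notes without versions, and the labels' protocols name sonication and ligation; the step from reads to barcode counts and the counting settings are not given in the sources used here. Where a symbol was repeated, the gene with the most counts kept it. No doublet caller was run and no cell was removed; a variant dropped the deepest 5% of cells. CPM is the count scaled to 1000000 counts of the cell, or of the summed table where stated. Correlations are Spearman's over cells of CPM. The mean z score averages log1p CPM, standardised per gene, over the members; a member was set against the score of the other 9. Class ratios compare mean CPM with 1 CPM added. Background values cover genes with a count in at least 10% of cells. Thinning drew 56586 counts per cell, the 10th percentile, and left out 46 shallower cells (seed 1). Low-Sftpc columns are those with Sftpc under 30 CPM in over 50% of their 20 neighbours in the table. Poisson and Clopper-Pearson intervals (95%) cover counting error only; depth is given with the results.

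Exon lengths, merged over all annotated exons of a gene, and positions came from GENCODE vM21, promoter windows from RefSeq GRCm38.p6. Of 261 list genes 260 were measured. Named genes were drawn from the 10 members, the load and class genes and the 3 most abundant genes of each list. Up to 4 more past 1.5-fold or a correlation of 0.3 could be added. The 10 genes nearest the members with at least 20 CPM were named as well. Not every gene of these kinds is named, and others are said to be chosen after their values were seen. The members and lists were chosen with earlier results of these data known. Alternatives changed depth, thinning, size factors (scran 1.30.0, R 4.3.3), the load, class and background definitions and the cells used; those that hold Malat1 and mitochondrial counts fixed, average over 4 depth groups or use genes in 90% of cells were chosen after seeing the data. Correlation and ratio steps were tested on simulated data. Calculations used numpy 2.4.6, pandas 2.3.3 and scipy 1.17.1 in Python 3.11.15, with matplotlib 3.10.9 for the plots. The name of the strain is not reported here.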

Additional observations from a re-analysis of the deposited data

How the results depend on the processing

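The summed level of the members, 4590 CPM, was 4524 CPM after thinning, 4520 CPM without the 5% of cells with the most counts, 4308 CPM in the low-Sftpc columns and 4679 CPM outside them. The median pair correlation stayed between 0.213 and 0.282 and the pairs at 0.2 or more between 27 and 32. The number of members at 0.2 or more with the load, 0, became 1 without the 5% of cells with the most counts, 1 given the total count, 1 given total, Malat1 and mitochondrial counts, 2 with scran size factors, and 2 with Col1a1 and Col1a2 only; the median became -0.0850 in the cells without more Rgs5 and -0.0182 with Fn1 only. Members more than 1.5-fold lower, 0, became 1 with classes over 2-fold apart (Sdf2l1). The median log2 class ratio stayed between -0.30 and -0.19, with 9 or 10 of 10 members below 1; Pdia6 was the exception, at 0.09 in the low-Sftpc columns. Of the alternative values, 12 for the main results (in 4 of them) moved beyond the spread or limit set and 83 did not, and for single genes 70 did and 762 did not. The causes of these moves were not tested. No paired analysis was possible because the 460 cells form 1 group and the labels name no animal or culture. Depth limits Sdf2l1 most, with a median of 0 counts per cell.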
